A study of Mus musculus with 12 samples.

Results

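Collagen genes encode the chains of triple helical proteins of the extracellular matrix, and they were described here in mouse embryonic stem (ES) cells given a MEK inhibitor. The members are the rows of the deposited count table whose gene name is Col, a type number, the letter a and a chain number. This rule found 44 genes among the 26742 of the table. They belong to 27 collagen types, lie on 15 chromosomes in GENCODE M21 (GRCm38), and are all annotated as protein coding.

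The cells were male by their labels and of the 129 or the B6J background, and were grown in serum with leukaemia inhibitory factor. Every day until day 5 the medium was given DMSO, the solvent, or the MEK inhibitor PD 0325901 at 1 µM. Background and treatment crossed make 4 groups of 3 libraries each. No line or clone is named, so a background and the cell line that carries it cannot be told apart. The labels do not state whether feeder cells were present. They also do not say that the 3 libraries of a group were separate cultures, so the p-values measure only the spread between libraries, which may be technical.

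Collagen chains fold in threes into a triple helix after their prolines and lysines have been hydroxylated in the endoplasmic reticulum. Fibrillar collagens such as types I, III, V and XI are trimmed outside the cell and form the cross-linked fibrils of connective tissue. FACIT collagens (fibril-associated collagens with interrupted triple helices) sit on the surface of those fibrils, type IV forms the sheet of basement membranes, and type VI forms beaded filaments. Fibroblasts are a main source of fibrillar collagens, and the primitive endoderm, an extraembryonic cell type that ES cell cultures can give rise to, lays down type IV.

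Library totals ran from 62634533 to 96341637 counts. Levels are given in CPM, the reads of a gene per 1000000 counts of its library, where edgeR's TMM method corrected each total. The ES cell markers were present in every library and moved with treatment: the sum over 12 of them ran from 4023 to 5451 CPM in 129 with DMSO and from 6530.5 to 6917 CPM with the inhibitor. In B6J it ran from 4820 to 5819 CPM and from 6211 to 6627 CPM. Of these 12 markers 8 rose and 1 fell in 129, where 17.4% of all tested genes rose and 18.2% fell. In B6J 7 rose and 2 fell, beside 14.6% and 16.5% of all tested genes. The part of these markers in the collagen results was not tested. Replicate 1 stood apart in 3 groups by the chi-square per degree of freedom over all genes. It was 177 and 167 against the other libraries of 129 with DMSO and 7.56 between those, 86.1 and 71.0 against 16.01 in 129 with the inhibitor, and 89.4 and 85.3 against 6.92 in B6J with DMSO. In B6J with the inhibitor the 3 pairs lay between 26.7 and 123, with replicates 1 and 3 the furthest apart. In replicate 1 of 129 with DMSO 18 primitive endoderm markers summed to 10463 CPM, against 1875 and 1906 CPM in replicates 2 and 3. Its level of Gata4, a transcription factor of that lineage, was 128 CPM against 3.84 and 2.98. Results that rest on this or another single library are given with and without it.

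The 44 collagens together took 10508, 3233 and 3347 CPM in replicates 1, 2 and 3 of 129 with DMSO. They took 11735, 7739 and 8127 CPM in 129 with the inhibitor. In B6J the sums were 4870.0, 5429.5 and 5025 CPM with DMSO and 7160.0, 9428 and 11674 CPM with the inhibitor. The B6J groups did not overlap, whereas in 129 replicate 1 with DMSO lay above replicates 2 and 3 with the inhibitor. The sum over 20 fibroblast markers, from which collagens were left out, ran from 4476 to 7669 CPM in 129 with DMSO and from 6883 to 9175 CPM with the inhibitor. In B6J it ran from 5624 to 6321 CPM and from 6957 to 10184 CPM. In each background 10 of the 20 fibroblast markers rose under the inhibitor and 0 fell (edgeR, 15 higher and 0 lower at an unadjusted p under 0.05 in 129, 12 and 0 in B6J). Over all tested genes 17.4% rose and 18.2% fell in 129, and 14.6% and 16.5% in B6J. At the unadjusted threshold 3733 of 16627 tested genes rose and 3847 fell in 129, and 3270 and 3552 in B6J. None of the 20 fibroblast markers was at 0 in any library. The part of the fibroblast markers in the collagen results was not tested, and the values of a fit that carries their mean level are given further on. In such bulk libraries a change in the number of cells of one kind and a change in RNA per cell cannot be told apart.

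**Figure D1:**
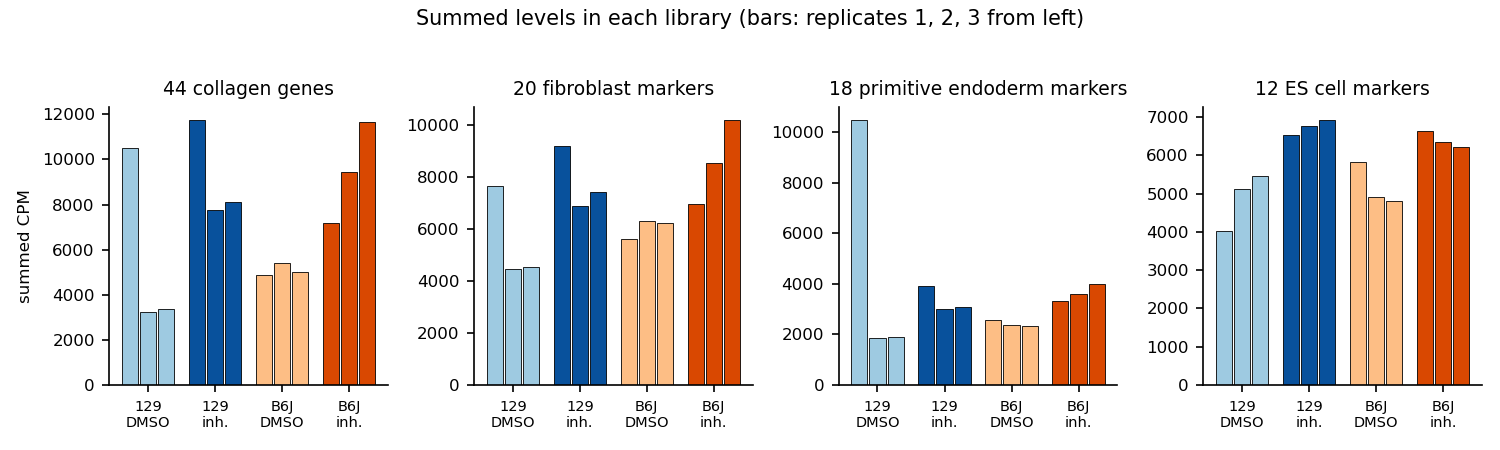
Summed CPM of the 44 collagen genes and of 3 marker lists in each library, with bars for replicates 1, 2 and 3 from left to right in each group. Within each group the library highest in collagens is also the highest in fibroblast markers, and replicate 1 of 129 with DMSO has the highest sum of primitive endoderm markers, 10463 CPM.

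Col1a1, Col3a1, the 3 type V chains, the type VI chains Col6a1, Col6a2 and Col6a3, Col10a1, Col12a1 and Col14a1 were higher after the inhibitor in both backgrounds, and Col6a5, Col7a1, Col15a1 and Col25a1 were lower in both. In 129, 17 members rose and 6 fell of the 42 that passed the filter on low counts. Over all tested genes 17.4% rose and 18.2% fell. In B6J 17 members rose and 5 fell, where 14.6% of all genes rose and 16.5% fell. The median log2 fold change of the tested members was 0.47 in 129 and 0.51 in B6J, beside -0.01 and 0.00 over all tested genes. A gene counts as changed at a Benjamini-Hochberg adjusted p under 0.05 over all 16627 tested genes, in edgeR's quasi-likelihood test. Without replicate 1 of 129 with DMSO 21 members rose and 7 fell in 129, and without both 129 libraries numbered 1 the counts were 17 and 6. Over all tested genes these fits called 6671 of 16987 and 6307 of 16916 in either direction, beside 5930 of 16627 with all libraries.

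Of the 17 members that rose in each background 15 rose in both, and 4 of the 6 and 5 that fell did so in both. The test of the difference between the responses called 0 members, where 0.71% of all genes had a higher and 0.77% a lower response in B6J. At an unadjusted p under 0.05 edgeR gave 3 members with a higher and 3 with a lower response in B6J (Col5a3, Col23a1 and Col27a1, and Col2a1, Col6a5 and Col18a1). At that threshold 1066 of all 16627 tested genes had a higher and 1059 a lower response, so these member counts lie near the share over all genes. The DESeq2 Wald test called 1, Col18a1, and limma-voom called 0. By groups that do not overlap, 18 members were higher and 6 lower in 129, where 23% and 24.4% of all genes were. In B6J 21 were higher and 8 lower, beside 24.3% and 25.7%.

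**Figure D2:**
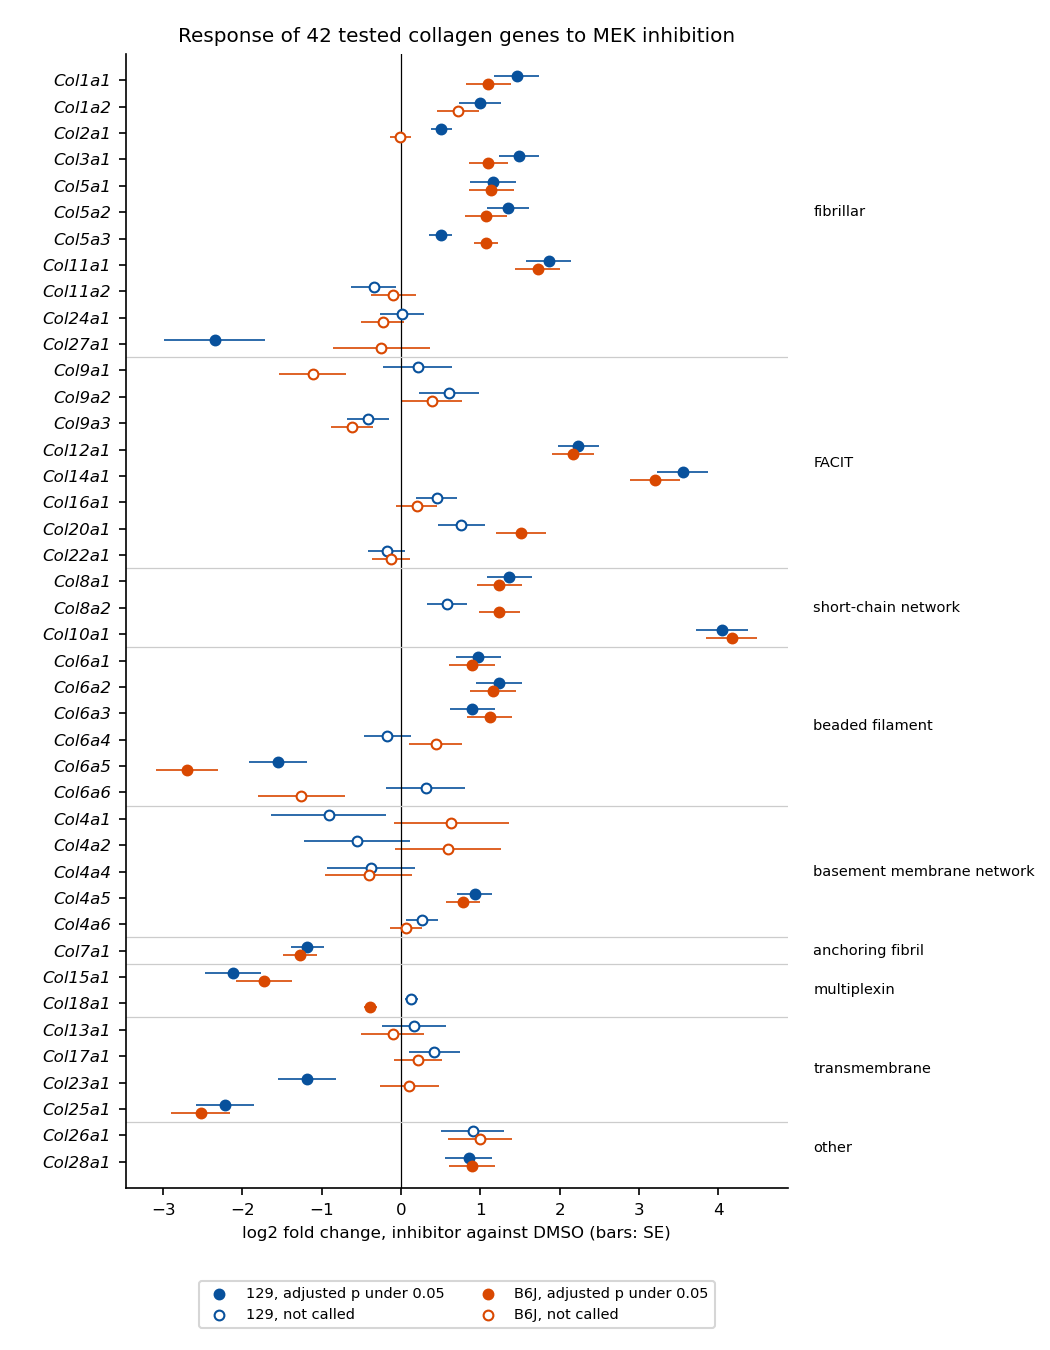
Log2 fold change of inhibitor against DMSO for the 42 tested collagen genes, by class, in 129 (blue) and B6J (orange), with bars for 1 SE. Filled points are called. Col10a1 lies furthest to the right in both backgrounds, at 4.05 and 4.17, and Col6a5, Col15a1 and Col25a1 lie on the left in both.

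Promoter sequences help to compare members that moved together. Windows of 200 bases before the annotated start were taken from RefSeq (GRCm38.p6) for the 35 members with an entry. For 3 of them (Col6a2, Col9a1 and Col18a1) there were 2 windows at different starts, which makes 38 windows. Those without one are Col1a1, Col2a1, Col4a3, Col5a2, Col9a3, Col12a1, Col14a1, Col22a1 and Col26a1. The windows are shown for 4 genes that rose in both backgrounds (Col10a1, Col11a1, Col3a1, Col5a1) and 3 that fell in both (Col7a1, Col15a1, Col25a1). None of them overlaps an annotated exon of GENCODE M21, and that of Col25a1 lies inside the gene's annotated span. Capitals mark the CCAAT box by its letters CCAAT, the TATA-like run TATAAA, the GC box core GGGCGG or the AP-1 core TGANTCA, each sought on either strand. A CCAAT box on the other strand reads ATTGG, and a GC box core there reads CCGCCC.
Col10a1 (chr10:34389781-34389980, + strand): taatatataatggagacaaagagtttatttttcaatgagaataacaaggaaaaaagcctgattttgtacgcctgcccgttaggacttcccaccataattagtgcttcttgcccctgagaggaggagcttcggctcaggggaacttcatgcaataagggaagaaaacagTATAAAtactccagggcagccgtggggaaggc
Col11a1 (chr3:114030340-114030539, + strand): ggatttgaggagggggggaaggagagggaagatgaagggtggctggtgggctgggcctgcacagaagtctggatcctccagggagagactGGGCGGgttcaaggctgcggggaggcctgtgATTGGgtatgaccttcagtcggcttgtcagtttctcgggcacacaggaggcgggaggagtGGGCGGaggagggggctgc
Col3a1 (chr1:45311338-45311537, + strand): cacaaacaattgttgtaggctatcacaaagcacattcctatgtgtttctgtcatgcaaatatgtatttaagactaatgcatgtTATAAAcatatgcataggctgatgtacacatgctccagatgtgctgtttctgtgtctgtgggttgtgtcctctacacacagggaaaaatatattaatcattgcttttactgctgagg
Col5a1 (chr2:27886225-27886424, + strand): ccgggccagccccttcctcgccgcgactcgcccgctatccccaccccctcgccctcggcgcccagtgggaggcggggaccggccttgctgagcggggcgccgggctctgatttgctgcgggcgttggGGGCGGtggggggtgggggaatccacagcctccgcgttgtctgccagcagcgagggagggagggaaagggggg
Col7a1 (chr9:108953386-108953585, + strand): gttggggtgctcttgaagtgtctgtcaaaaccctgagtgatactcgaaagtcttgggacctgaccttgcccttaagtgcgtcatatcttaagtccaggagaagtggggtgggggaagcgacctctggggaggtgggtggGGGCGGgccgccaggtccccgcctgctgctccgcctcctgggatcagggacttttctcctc
Col15a1 (chr4:47207812-47208011, + strand): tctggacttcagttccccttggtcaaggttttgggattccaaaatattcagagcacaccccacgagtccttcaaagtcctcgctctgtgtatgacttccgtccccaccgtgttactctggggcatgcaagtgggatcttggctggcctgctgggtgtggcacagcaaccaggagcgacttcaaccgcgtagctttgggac
Col25a1 (chr3:130180645-130180844, + strand): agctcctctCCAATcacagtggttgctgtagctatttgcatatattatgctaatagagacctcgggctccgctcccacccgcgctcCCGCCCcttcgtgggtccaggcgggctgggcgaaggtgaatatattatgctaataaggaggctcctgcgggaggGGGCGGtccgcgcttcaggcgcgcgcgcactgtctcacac

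The TATA-like TATAAA stands close to the start in Col10a1 and further up in Col3a1. Over all 32851 RefSeq promoters 3272 hold TATAAA in this window, and 4 of the 38 member windows do. GGGCGG, the core of a GC box, was found in 22 of 38 member windows (57.9%), which belong to 21 genes, and in 31.0% of all promoters. The median GC content was 60.8% in member windows and 53.0% in all. Of the 11 members with a window that rose in both backgrounds 6 hold GGGCGG, and of the 4 that fell in both 3 do. CCAAT was found in 10 of 38 member windows (26.3%) and 29.3% of all promoters. TGANTCA, the core of the site bound by AP-1, was found in 1 member, Col6a1, and in 5.5% of all promoters. The motifs do not overlap each other in the printed windows, and a match is a run of letters, not a site shown to be used.

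Among the 11 fibrillar chains 8 rose and 1 fell in 129, and 6 rose and 0 fell in B6J (7 and 0 at an unadjusted p under 0.05). The shares over all tested genes, 17.4% higher and 18.2% lower in 129 and 14.6% and 16.5% in B6J, hold for the calls of each class below. For responses counted below at an unadjusted p under 0.05, 3733 of all 16627 tested genes rose and 3847 fell in 129. In B6J 3270 rose and 3552 fell at that threshold. Col1a1 encodes the chain present as a pair in each type I molecule, the main collagen of skin and bone. It measured 1139.5, 602 and 634 CPM in 129 with DMSO and 2907, 1744 and 1878 CPM with the inhibitor. In B6J it measured 945, 1051 and 995 CPM with DMSO and 1531, 2101 and 2791 CPM with the inhibitor. No library with DMSO reached one with the inhibitor in the same background. The log2 fold change was 1.46 (SE 0.28, adjusted p = 0.00208) in 129 and 1.10 (SE 0.28, adjusted p = 0.0107) in B6J.

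Col1a2, the partner chain of type I, went from 1318, 669 and 711 CPM to 2301, 1483 and 1598 CPM in 129. In B6J it went from 1061, 1223 and 1107 CPM to 1405, 1846 and 2331 CPM. The groups did not overlap in either background, but the test called the 129 response alone (1.00, SE 0.26, adjusted p = 0.0128) and not that of B6J (0.72, adjusted p = 0.0583). The difference between these responses was -0.28 (adjusted p = 0.812). Leaving out DMSO replicate 2 or 3 (adjusted p = 0.0519 and 0.0515) or treated replicate 1 (0.0562) ended the 129 call. The B6J response was called once DMSO replicate 1 or 2 of 129 (adjusted p = 0.0105 and 0.0493), treated replicate 1 of 129 (0.0479) or treated replicate 1 of B6J (0.0333) was left out.

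Type III, made of Col3a1 chains alone, is found with type I in skin and vessel walls. Col3a1 rose from 234, 127 and 133 CPM to 591, 398 and 395 CPM in 129 (1.49, SE 0.25, adjusted p = 0.000878). In B6J it rose from 211, 271 and 217 CPM to 393, 511 and 595 CPM (1.10, SE 0.25, adjusted p = 0.00575). Every library with the inhibitor was above every library with DMSO of its background.

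Type V chains are minor components of type I fibrils and help to set their diameter. Col5a1 went from 569, 274 and 284 CPM to 1099.8, 694 and 727 CPM in 129 (1.16, adjusted p = 0.00855). In B6J it went from 361, 400.0 and 373 CPM to 618, 832 and 1051 CPM (1.14, adjusted p = 0.0103). For Col5a2 the 129 libraries held 358, 183 and 188 CPM with DMSO and 793, 533 and 533 CPM with the inhibitor (1.35, adjusted p = 0.00239). Its B6J libraries held 256, 343 and 289.7 CPM and then 492, 632 and 744 CPM (1.07, adjusted p = 0.00944). Neither gene's groups overlapped in either background.

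Col5a3, the rarest type V chain here, behaved less evenly. It measured 10.5, 7.37 and 8.04 CPM in 129 with DMSO and 13.3, 13 and 10.3 CPM with the inhibitor, so these groups overlapped. The B6J libraries held 7.69, 9.36 and 8.27 CPM with DMSO and 17, 17.5 and 18.7 CPM with the inhibitor, with no overlap. The log2 fold change was 0.50 (SE 0.15, adjusted p = 0.0213) in 129 and 1.07 (SE 0.15, adjusted p = 0.000242) in B6J. Leaving out DMSO replicate 2 or 3 (adjusted p = 0.0872 and 0.0724) or treated replicate 1 or 2 (0.0697 and 0.0673) ended the 129 call. The difference between the responses was 0.57 (adjusted p = 0.252).

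Col11a1, a type XI chain that nucleates thin fibrils, rose most among the fibrillar genes. It measured 65.8, 31.4 and 30.6 CPM in 129 with DMSO and 196, 132 and 137 CPM with the inhibitor (1.86, SE 0.29, adjusted p = 0.000463). In B6J 40.0, 56.1 and 49.1 CPM became 132, 165 and 183 CPM (1.72, SE 0.28, adjusted p = 0.000822). The lowest library with the inhibitor held 132 CPM in each background, above the highest with DMSO. Its type XI partner Col11a2 had group means of 0.991 to 1.26 CPM and was not called.

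Col2a1, the main collagen of cartilage, moved little. It went from 10.5, 12 and 12.5 CPM to 17.3, 15.4 and 17.3 CPM in 129, without overlap (0.51, SE 0.13, adjusted p = 0.0112; 0.41 and 0.0586 without both 129 libraries numbered 1). In B6J 15.7, 14.8 and 15.8 CPM stood beside 12.9, 14.5 and 18.7 CPM (-0.01, adjusted p = 0.972).

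Col27a1 was the 1 fibrillar gene called lower, and the size of its change came from 1 library. It measured 44.1, 6.75 and 5.27 CPM in 129 with DMSO and 3.75, 4.04 and 3.23 CPM with the inhibitor (-2.35, SE 0.64, adjusted p = 0.0145). Without replicate 1 with DMSO, the library high in primitive endoderm markers, the value was -0.71 (adjusted p = 0.00687). A block for the replicate number gave -1.63 (adjusted p = 0.0515), and leaving out treated replicate 3 also ended the call (adjusted p = 0.0546). The B6J libraries held 5.74, 8.18 and 6.97 CPM with DMSO and 5.82, 5.67 and 6.13 CPM with the inhibitor, and overlapped. Col24a1 had group means of 1.15 to 1.35 CPM and was not called.

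Among the FACIT genes Col12a1 and Col14a1 had larger rises than any fibrillar gene, in both backgrounds. Of 8 tested FACIT genes 2 rose and 0 fell in 129 (3 and 0 at an unadjusted p under 0.05), and 3 rose and 0 fell in B6J (3 and 2). Col12a1 encodes type XII, which links fibrils in tendon and other loaded tissue. It measured 235, 111 and 120.3 CPM in 129 with DMSO and 803, 647 and 751 CPM with the inhibitor. For B6J the values were 158, 176 and 178 CPM with DMSO and 591, 782 and 932 CPM with the inhibitor. The log2 fold changes were 2.24 (SE 0.26, adjusted p = 6.84e-05) and 2.17 (SE 0.26, adjusted p = 8.92e-05), with no overlap of groups.

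Col14a1, for type XIV, which binds fibrils and the proteoglycan decorin, started low. It held 2.66, 1.08 and 1.33 CPM in 129 with DMSO and 22.7, 17.8 and 19.1 CPM with the inhibitor (3.55, SE 0.32, adjusted p = 1.08e-05), a fitted 11.7-fold rise. In B6J it held 2.52, 3.15 and 2.05 CPM with DMSO and 18.1, 24.4 and 28.7 CPM with the inhibitor (3.20, SE 0.31, adjusted p = 1.95e-05), a 9.22-fold rise. The groups were apart in both backgrounds.

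The remaining FACIT genes were low or unmoved by the test. Col16a1 measured 24.3, 14.1 and 14.3 CPM in 129 with DMSO and 31.1, 21.1 and 19.8 CPM with the inhibitor. The B6J libraries held 21.3, 25 and 20.8 CPM and 18.2, 26.4 and 32.2 CPM. These groups overlapped in both backgrounds, and neither response was called (0.45 and 0.20, adjusted p = 0.197 and 0.608). A block for the replicate number made the 129 response a call (0.47, adjusted p = 0.0457), as did leaving out DMSO replicate 1 (0.76, adjusted p = 0.0251).

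Type IX, which coats type II fibrils in cartilage, is built from Col9a1, Col9a2 and Col9a3. Col9a2 measured 2.79, 8.0 and 9.94 CPM in 129 with DMSO and 6.78, 12.8 and 11.9 CPM with the inhibitor. In B6J it measured 11.8, 8.88 and 7.61 CPM and 13.4, 11.4 and 12.4 CPM, so its groups overlapped in both backgrounds. The 129 value was 0.61 (adjusted p = 0.234), or 0.73 (adjusted p = 0.0233) in the fit blocked by replicate number. Col9a3 had group means from 2.07 to 3.79 CPM and Col9a1 from 0.117 to 0.256 CPM, neither called.

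Col20a1 had group means of 0.816 and 1.39 CPM in 129 and of 0.380 and 1.08 CPM in B6J, and was called higher in B6J (1.51, adjusted p = 0.00368). Col22a1, which marks tissue junctions, had means from 1.72 to 2.44 CPM and was not called. Col19a1 had 2 to 10 counts per library and was not tested.

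Of the 3 short-chain network genes, 2 rose and 0 fell in 129 (3 and 0 at an unadjusted p under 0.05), and all 3 rose in B6J. Col10a1 encodes type X, the collagen of hypertrophic cartilage. It had the largest fold change of the members in each background. It held 1.06, 0.882 and 0.406 CPM in 129 with DMSO and 15.3, 10.5 and 13.3 CPM with the inhibitor (4.05, SE 0.33, adjusted p = 5.2e-06). In B6J it held 0.755, 0.758 and 1.01 CPM with DMSO and 10.9, 16.3 and 18.3 CPM with the inhibitor (4.17, SE 0.32, adjusted p = 4.38e-06). The fitted rises were 16.6-fold and 18-fold, and leaving out any 1 library gave log2 values between 3.75 and 4.38. Of 8 cartilage markers, none of them a collagen, 6 were tested. In 129, 1 of them rose and 2 fell, and in B6J 1 rose and 0 fell (1 and 1 at an unadjusted p under 0.05). The 1 of 6 that rose lies near the 17.4% of all tested genes in 129 and the 14.6% in B6J. Matn1, which encodes a cartilage matrix protein, rose in both, from 0.273 to 2.24 CPM in 129 (3.03) and from 0.206 to 0.624 CPM in B6J (1.59). In 129 Sox9, a transcription factor of the cartilage lineage, fell (-1.21, adjusted p = 0.0034), as did Ihh, a signal of hypertrophic cartilage, from 7.04, 0.224 and 0.390 CPM to 0.0552, 0.166 and 0.182 CPM (-4.23, adjusted p = 0.0139). The size of the Ihh change came from replicate 1 with DMSO, the library high in primitive endoderm markers. Fits of Ihh and Sox9 without that library are not given. The 8 markers summed to 20.9 to 26.3 CPM in 129 with DMSO and 22.2 to 25.4 CPM with the inhibitor, and to 21.5 to 21.8 CPM and 21.4 to 23.4 CPM in B6J, and Cnmd was at 0 in every library with the inhibitor. The part of these genes in the Col10a1 result was not tested.

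Col8a1, for type VIII, which forms hexagonal sheets under endothelia, measured 132, 65.4 and 65.8 CPM in 129 with DMSO and 282, 196 and 201 CPM with the inhibitor (1.37, SE 0.28, adjusted p = 0.00315). For B6J the values were 72.5, 117 and 103 CPM and 186, 239.6 and 264 CPM (1.24, SE 0.28, adjusted p = 0.00587). The groups did not overlap. Col8a2, the second type VIII chain, had group means of 2.01 and 3.02 CPM in 129 and of 1.17 and 2.75 CPM in B6J, and was called in B6J (1.24, adjusted p = 0.00375).

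**Figure D3:**
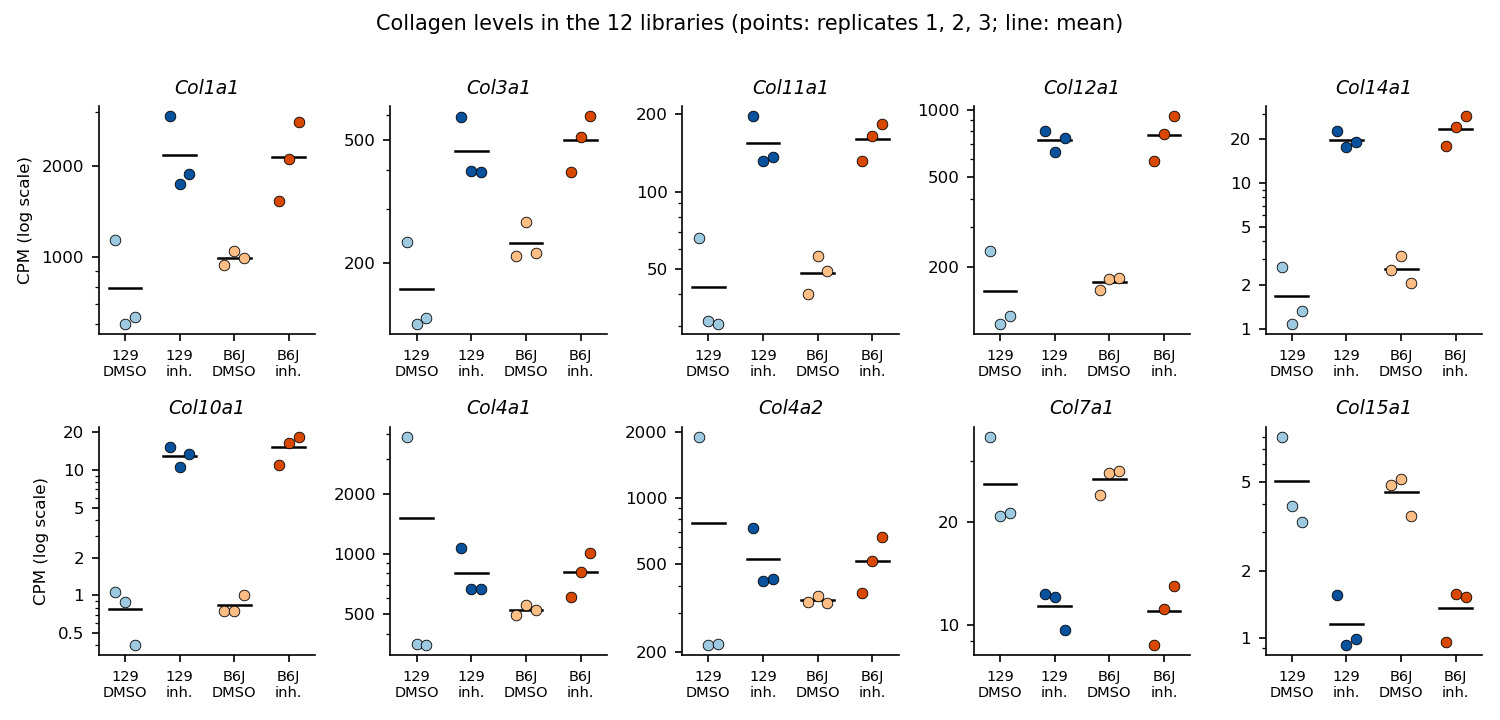
CPM on a log scale of 10 collagen genes in the 12 libraries, with points for replicates 1, 2 and 3 and a line at the group mean. The 6 genes from Col1a1 to Col10a1 are higher with the inhibitor in both backgrounds, Col7a1 and Col15a1 are lower, and Col4a1 and Col4a2 are highest in replicate 1 of 129 with DMSO.

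The beaded filament genes of type VI divided by chain. The 3 chains of the widespread form rose in both backgrounds, while Col6a5 fell. Col6a1 went from 102, 48.2 and 55.1 CPM to 177, 109 and 117 CPM in 129 (0.98, adjusted p = 0.0202), and from 77.7, 91.3 and 78.7 CPM to 112, 156 and 193 CPM in B6J (0.90, adjusted p = 0.0327). Col6a2, its neighbour on chromosome 10, went from 60.4, 30.9 and 31.6 CPM to 129, 79.4 and 80.8 CPM in 129 (1.24, adjusted p = 0.00622). In B6J Col6a2 went from 45.8, 54.2 and 44.3 CPM to 76.9, 113 and 133 CPM (1.16, adjusted p = 0.00954). For both genes the groups were apart in both backgrounds.

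Col6a3, the longest of these chains, went from 48.8, 22.9 and 24.6 CPM to 71.8, 50.03 and 57.9 CPM in 129 (0.90, adjusted p = 0.0278), and from 34.5, 38.0 and 31.8 CPM to 52.6, 80.0 and 93.7 CPM in B6J (1.12, adjusted p = 0.0108). Its groups did not overlap. Several of these calls turned on single libraries. Leaving out DMSO replicate 2, DMSO replicate 3 or treated replicate 1 took the adjusted p in 129 to 0.0758, 0.0738 and 0.0871 for Col6a1 and to 0.101, 0.0978 and 0.0959 for Col6a3. Leaving out treated replicate 3 took it to 0.0589 for Col6a3. In B6J the Col6a1 call ended when DMSO replicate 1, 2 or 3 (0.0903, 0.0605 and 0.0967) or treated replicate 2 or 3 (0.0787 and 0.121) was left out.

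The 3 alternative type VI chains lie side by side on chromosome 9 and stayed under 5 CPM as group means. Col6a5 averaged 4.97 CPM in 129 with DMSO (2.10 to 6.76) and 1.70 CPM with the inhibitor (1.5 to 2.04), a log2 fold change of -1.55 (adjusted p = 0.00687). In B6J it averaged 3.62 CPM (3.39 to 3.75) and 0.554 CPM (0.392 to 0.735), a change of -2.70 (adjusted p = 0.000324). Its groups did not overlap in either background. Col6a4 and Col6a6 were not called in either response.

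Of the 5 tested chains of type IV, the basement membrane collagen, 1 rose and 0 fell in each background (1 and 0 at an unadjusted p under 0.05 in both). That 1 of 5 lies near the 17.4% of all tested genes that rose in 129 and the 14.6% in B6J. Col4a1 measured 3852, 354 and 352 CPM in 129 with DMSO and 1079, 671 and 669 CPM with the inhibitor. Replicate 1 with DMSO was over the other libraries of its group by far more than those differed, and it was also the library highest in primitive endoderm markers. With all libraries the change was -0.91 (adjusted p = 0.353), and without that library 1.19 (adjusted p = 0.00186). In the fit blocked by replicate number it was 0.065 (adjusted p = 0.933).

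Col4a2, the partner of Col4a1, followed the same pattern in 129: 1886, 217 and 217 CPM with DMSO and 729, 421 and 432 CPM with the inhibitor. Its change was -0.55 (adjusted p = 0.548) with all libraries, 1.28 (adjusted p = 0.00246) without replicate 1 with DMSO and 0.23 (adjusted p = 0.72) with the block. In B6J Col4a1 measured 494, 553 and 527 CPM with DMSO and 609.9, 818 and 1015 CPM with the inhibitor, and Col4a2 339, 361 and 333 CPM and 373, 518 and 669 CPM. The B6J groups did not overlap for either gene, but neither was called (0.63 and 0.59, adjusted p = 0.555 and 0.55). Without replicate 1 of 129 with DMSO, which enters the shared estimate of the spread, Col4a1 was called in B6J (0.63, adjusted p = 0.0269). The 18 primitive endoderm markers in B6J summed to 2350.1 to 2555 CPM with DMSO and to 3307 to 3984 CPM with the inhibitor, without overlap, and in 129 with the inhibitor to 2996 to 3926 CPM. Of the 16 tested 0 rose and 7 fell in 129 (1 and 8 at an unadjusted p under 0.05), and 0 rose and 1 fell in B6J (1 and 2). Over all tested genes 17.4% rose and 18.2% fell in 129, and 14.6% and 16.5% in B6J. The 129 counts include replicate 1 with DMSO, whose marker sum was 10463 CPM against 1875 and 1906 CPM in replicates 2 and 3. All 129 libraries with the inhibitor lay above those replicates 2 and 3. Marker counts without replicate 1 are not given. Gata4 stayed between 1.83 and 4.24 CPM in the B6J libraries, where Ttr was at 0 in all. The part of these markers in the type IV values of B6J was not tested.

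Col4a5, a type IV chain of the kidney filter, rose from 32.9, 18.1 and 18.4 CPM to 52.0, 40.5 and 39.5 CPM in 129 (0.93, SE 0.22, adjusted p = 0.00671). In B6J it rose from 23.4, 25.9 and 27.8 CPM to 36.4, 45.6 and 50.5 CPM (0.78, SE 0.22, adjusted p = 0.0178). The groups were apart. In B6J leaving out DMSO replicate 1 or 2 (adjusted p = 0.0616 and 0.0508) or treated replicate 2 or 3 (0.0536 and 0.0655) ended the call. Col4a6, which starts 1308 bases from Col4a5 on the opposite strand of chromosome X, had group means of 1.44 to 1.73 CPM and was not called. Col4a3 and Col4a4, the other chains of the kidney filter, stayed under 0.26 CPM as group means. Col4a4 was not called, and Col4a3, with 2 to 12 counts per library, was not tested.

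The genes that fell in both backgrounds included 2 of basement membrane zones. Col7a1 encodes the anchoring fibrils that fasten epithelium to the tissue beneath. It measured 35.3, 20.8 and 21.2 CPM in 129 with DMSO and 12.3, 12.1 and 9.69 CPM with the inhibitor (-1.18, SE 0.21, adjusted p = 0.00119). In B6J it measured 23.9, 27.8 and 28.2 CPM and 8.80, 11.2 and 13 CPM (-1.27, SE 0.21, adjusted p = 0.000798). Every library with the inhibitor was below every library with DMSO of its background.

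Col15a1, a multiplexin that bridges basement membranes and fibrils, measured 7.95, 3.89 and 3.32 CPM in 129 with DMSO and 1.56, 0.936 and 0.993 CPM with the inhibitor (-2.12, SE 0.36, adjusted p = 0.000839). The B6J libraries held 4.85, 5.17 and 3.51 CPM and 0.962, 1.58 and 1.53 CPM (-1.73, SE 0.35, adjusted p = 0.003). The groups did not overlap. In each background Col7a1 and Col15a1 stayed called lower without any 1 library, with log2 values from -1.41 to -0.89 and from -2.38 to -1.51.

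Col18a1, the other multiplexin and the source of endostatin, was called lower in B6J and not in 129. It measured 315, 371 and 376 CPM in 129 with DMSO and 376, 407 and 381 CPM with the inhibitor (0.13, adjusted p = 0.24), and these groups overlapped. In B6J it measured 634, 544 and 555 CPM with DMSO and 426, 439.5 and 457 CPM with the inhibitor, without overlap (-0.39, SE 0.084, adjusted p = 0.00411). The difference between the responses was -0.52 (SE 0.12, adjusted p = 0.0548), which edgeR did not call. It was called by the DESeq2 Wald test (adjusted p = 0.00414) and without replicate 1 of 129 with DMSO (-0.44, adjusted p = 0.0392).

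The transmembrane collagens, which can be shed from the cell surface, had group means under 2 CPM. Of 4 tested, 0 rose and 2 fell in 129, and 0 rose and 1 fell in B6J, with the same counts at an unadjusted p under 0.05. Col25a1, best known from neurons, averaged 0.712 CPM in 129 with DMSO (0.425 to 0.868) and 0.150 CPM with the inhibitor (0.110 to 0.218), a change of -2.22 (adjusted p = 0.000766). In B6J it averaged 0.682 CPM (0.642 to 0.742) and 0.117 CPM (0.101 to 0.146), a change of -2.52 (adjusted p = 0.000363). Its libraries held 8 to 62 counts, and the groups did not overlap. Col23a1 averaged 1.72 and 0.754 CPM in 129 (-1.18, adjusted p = 0.0261). Leaving out DMSO replicate 2 or 3, or treated replicate 1 or 2, ended that call (adjusted p = 0.0877, 0.0531, 0.078 and 0.0538). Col13a1 and Col17a1 had group means from 0.994 to 1.91 CPM and were not called.

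Of the remaining genes Col28a1 rose in both backgrounds, from 0.859 to 1.55 CPM in 129 (adjusted p = 0.0425) and from 1.00 to 1.87 CPM in B6J (adjusted p = 0.035). Leaving out single libraries ended its 129 call in 8 of 12 cases, with an adjusted p of up to 0.145, and its B6J call in 5 of 12, with one of up to 0.121. Col26a1 averaged 1.77 and 3.31 CPM in 129 and 0.914 and 1.83 CPM in B6J, and was not called in either (adjusted p = 0.0983 and 0.0867).

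Because fibroblast markers moved with the collagens, the responses were also fitted with a covariate, the log2 CPM of fibroblast markers averaged over the 20 genes. That mean was 4.78, 3.99 and 3.86 in 129 with DMSO and 5.62, 5.13 and 5.07 with the inhibitor. In B6J it was 4.22, 4.76 and 4.52 with DMSO and 5.07, 5.37 and 5.57 with the inhibitor. The groups did not overlap, so marker level and treatment move together, and the fit tells them apart only by the spread within groups. In this fit 9 members were higher in 129, 5 of them among the 17, and 8 were higher in B6J, 6 of them among the 17. Over all 16627 tested genes it called 4659 in 129 and 4614 in B6J in either direction, beside 5930 and 5166 without the covariate.

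Col10a1 (3.19 in 129 and 3.43 in B6J), Col14a1 (2.56 and 2.33), Col12a1 (1.36 and 1.39) and Col11a1 (0.74 and 0.78) were called higher in both backgrounds with the covariate. Col9a2 (2.28 and 1.65), not called from group means alone, was called higher in both as well. Col1a1 was 0.38 and 0.19 and Col5a1 0.06 and 0.19, and neither was called. Col3a1 was called in 129 (0.48) and not in B6J (0.27, adjusted p = 0.0891). The type VI chains Col6a1, Col6a2 and Col6a3 lay between -0.12 and 0.23 and were not called. Col7a1 (-1.93 and -1.91) and Col15a1 (-3.25 and -2.72) were called lower in both, while Col6a5 (-0.60) and Col25a1 (-1.31) lost their calls in 129 (adjusted p = 0.504 and 0.0846). Col4a1 (-2.90 and -1.69), Col4a2 (-2.49 and -1.59), Col16a1 (-0.56 and -0.65) and Col27a1 (-3.94 and -1.95) were called lower with the covariate in both backgrounds. The covariate has a common slope for all libraries, so replicate 1 of 129 with DMSO also enters the B6J values. That library was high in the marker mean (4.78 against 3.99 and 3.86) and in Col4a1 (3852 against 354 and 352 CPM). A covariate fit without it was not run.

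**Figure D4:**
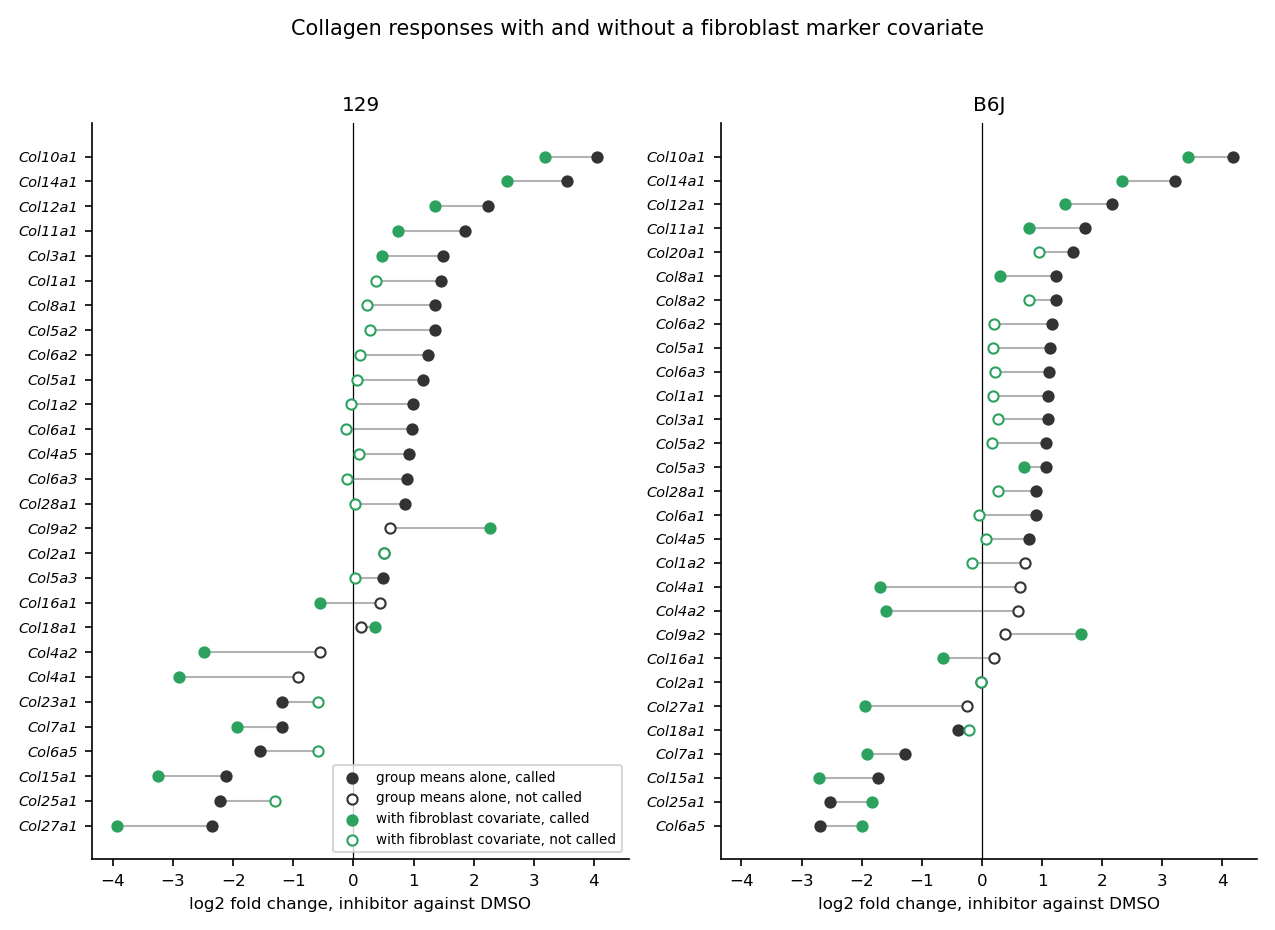
Log2 fold changes of collagen genes in 129 (left) and B6J (right), from group means alone (grey) and with the fibroblast marker mean as a covariate (green). Filled points are called. Col10a1, Col14a1, Col12a1 and Col11a1 are called higher in both fits, and most other fibrillar and type VI chains move to near 0.

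The backgrounds differed in few collagens. With DMSO 1 member was higher and 3 were lower in B6J than in 129, where 10.4% of all genes were higher and 10.5% lower. With the inhibitor 1 was higher and 3 were lower, beside 8.9% and 9.47%. Without replicate 1 of 129 with DMSO the counts with DMSO became 8 higher and 5 lower, and without both 129 libraries numbered 1 they became 15 and 5. Over all tested genes these fits called 4056 of 16987 and 4878 of 16916 in either direction, beside 3468 of 16627 with all libraries. Leaving out DMSO replicate 2 of 129, or treated replicate 1 or 3 of B6J, gave 2 higher with DMSO. With the inhibitor 1 was lower when treated replicate 1 or 2 of B6J was left out, and 2 were higher when DMSO replicate 1 of 129 was. The 8 called higher with DMSO were Col1a2, Col3a1, Col4a5, Col5a2, Col11a1, Col12a1, Col14a1 and Col18a1. Both comparisons share libraries with the responses.

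Col6a4, of the minor type VI chains, was lower in B6J under both conditions. It averaged 2.58 CPM in 129 with DMSO (1.77 to 3.45) and 0.368 CPM in B6J (0.252 to 0.526), a log2 difference of -2.81 (adjusted p = 0.000128). With the inhibitor it averaged 2.29 CPM in 129 (2.03 to 2.51) and 0.495 CPM in B6J (0.354 to 0.584), a difference of -2.20 (adjusted p = 0.000579). No B6J library reached a 129 library. Its neighbours on chromosome 9 were lower in B6J with the inhibitor: Col6a5 (-1.60, adjusted p = 0.013) and Col6a6, at means of 0.334 and 0.0948 CPM (-1.78, adjusted p = 0.0402). The Col6a5 call was lost once treated replicate 1 or 2 of B6J was left out (adjusted p = 0.0601 and 0.0535), and the Col6a6 call without any 1 of 8 libraries (up to 0.142).

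Col18a1 was the 1 member higher in B6J with DMSO, by 0.71 (SE 0.083, adjusted p = 0.000133), with 544 to 634 CPM against 315 to 376 CPM in 129. With the inhibitor its difference was 0.19 (adjusted p = 0.157). Col5a3 was the 1 member higher in B6J with the inhibitor, by 0.54 (SE 0.15, adjusted p = 0.0244). Leaving out treated replicate 3 of 129, or treated replicate 2 or 3 of B6J, ended that call (adjusted p = 0.109, 0.0732 and 0.0831).

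Col23a1 and Col20a1 were lower in B6J with DMSO. Col23a1 averaged 1.72 CPM in 129 and 0.579 CPM in B6J (-1.57, adjusted p = 0.0113), and Col20a1 0.816 and 0.380 CPM (-1.10, adjusted p = 0.0299). The Col20a1 call ended when DMSO replicate 1 or 3 of 129 or any DMSO library of B6J was left out (adjusted p from 0.0533 to 0.0929).

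**Figure D5:**
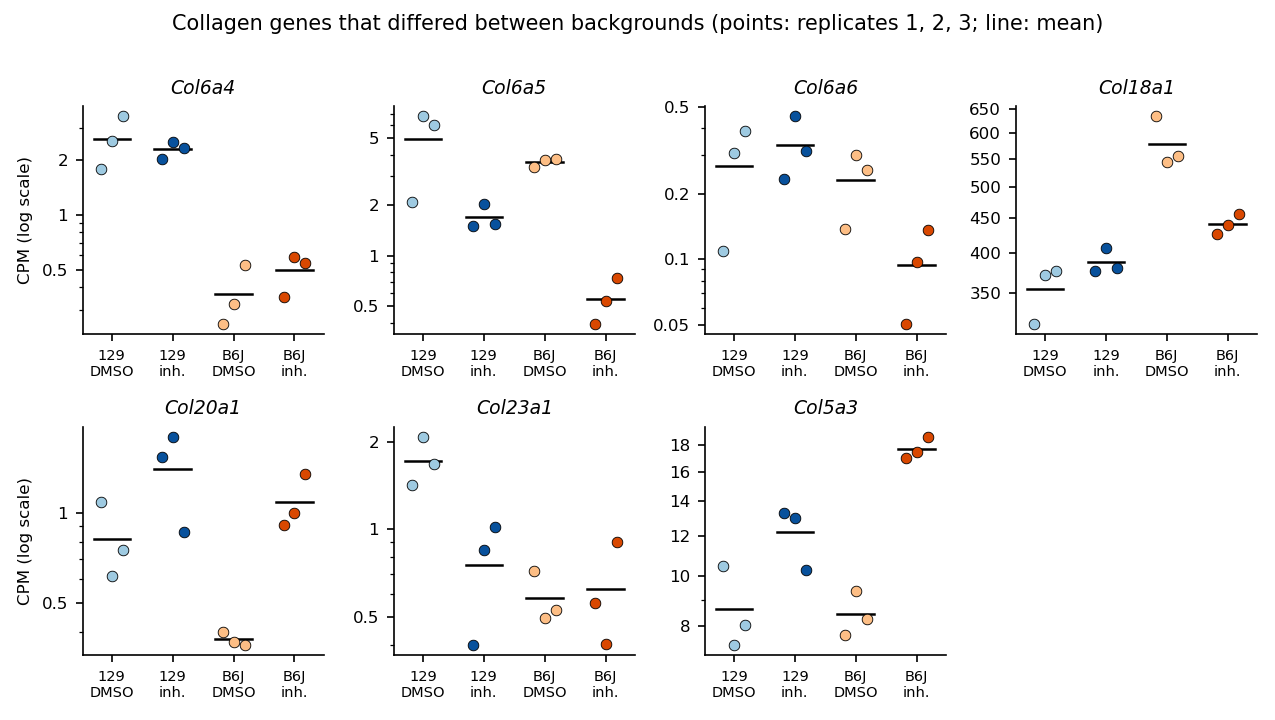
CPM on a log scale of the 7 collagen genes called between backgrounds, with points for replicates 1, 2 and 3 and a line at the group mean. Col6a4 is lower in every B6J library, with DMSO and with the inhibitor, and Col18a1 is highest in B6J with DMSO.

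Levels were compared between chains as CPM per kb of merged exons, a measure that depends on the annotated length. In this unit Col1a1 ranked first in 129 with the inhibitor (332 ± 97), B6J with DMSO (152 ± 8.10) and B6J with the inhibitor (326 ± 96.1 CPM per kb, SD, n = 3). In 129 with DMSO Col4a1 had the highest mean, 204 CPM per kb, from values of 516, 47.5 and 47.2, while Col1a1 had 174, 91.8 and 96.6. In replicates 2 and 3 of that group Col1a1 was therefore above Col4a1.

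The ratio of type I chains was close among the libraries of a group. Per kb, Col1a1 over Col1a2 was 1.68 ± 0.0346 in 129 with DMSO and 2.28 ± 0.0960 with the inhibitor (SD, n = 3). In B6J it was 1.67 ± 0.0393 and 2.16 ± 0.102, and the groups did not overlap in either background. Col6a1 over Col6a2 went from 3.16 ± 0.181 to 2.65 ± 0.0781 in 129 and from 3.27 ± 0.0947 to 2.72 ± 0.0900 in B6J, again without overlap. Col11a1 over Col11a2 went from 17.7 ± 5.36 to 87.5 ± 18.6 in 129 and from 24.8 ± 3.55 to 87.2 ± 3.26 in B6J. Each of these differences had a two-sided exact permutation p of 0.1, the smallest that 3 against 3 libraries allow (adjusted 0.167 over 20 ratio tests), so no ratio passed 0.05. Col3a1 over Col1a1 was 0.140 ± 0.00210 and 0.143 ± 0.00850 in 129 and 0.156 ± 0.0145 and 0.159 ± 0.0148 in B6J.

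Several members are neighbours in the genome. Col3a1 and Col5a2 lie tail to tail on chromosome 1 with 24.6 kb between them, and both rose in both backgrounds, as did Col6a1 and Col6a2, 85.2 kb apart on chromosome 10. Col4a1 and Col4a2 start head to head on chromosome 8, where their annotated starts overlap by 22 bases, and reads there could be shared if the counting ignored strand. Col4a5 and Col4a6 also lie head to head, and there Col4a5 alone was called. On chromosome 9 Col6a6, Col6a5 and Col6a4 follow each other in the same direction with gaps of 27.9 and 28.8 kb, and of these Col6a5 alone was called in the responses.

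Genes that process, bind or break down collagen were followed through a list of 59 genes, of which 56 were tested. In 129, 24 rose and 5 fell, and in B6J 15 rose and 3 fell, with medians of 0.39 and 0.42. The shares over all tested genes were 17.4% and 18.2% in 129 and 14.6% and 16.5% in B6J, with median log2 fold changes of -0.01 and 0.00. In the test of the difference between responses edgeR called 0 (0 higher and 2 lower at an unadjusted p under 0.05), the DESeq2 Wald test 1 and limma-voom 0. Without replicate 1 of 129 with DMSO 44 rose and 3 fell in 129, where 6671 of 16987 tested genes were called in either direction. The number that rose in 129 was 13, 13 and 11 after leaving out DMSO replicate 2, DMSO replicate 3 or treated replicate 1, and 14 in a fit of the 129 groups alone. In either direction these fits called 4590 of 16937, 4828 of 16940, 5060 of 16976 and 4693 of 15990 tested genes, beside 5930 of 16627 with all libraries. The number that fell in 129 was 3 after leaving out treated replicate 2 or 3, where 5052 of 16956 and 4821 of 16842 tested genes were called. In B6J 26 rose when DMSO replicate 1 of 129 was left out, and 27 in a fit of the B6J groups alone. These B6J fits called 6281 of 16987 and 5988 of 15931 tested genes in either direction, beside 5166 of 16627 with all libraries. With the fibroblast covariate 7 rose and 22 fell in 129, and 4 rose and 15 fell in B6J. Over all tested genes that fit called 4659 of 16627 in 129 and 4614 of 16627 in B6J, in either direction.

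By step, 8 of 24 hydroxylation, folding and export genes rose and 2 fell in 129, and 4 rose and 0 fell in B6J (8 and 0 at an unadjusted p under 0.05). The 4 of 24 that rose in B6J lie near the 14.6% of all tested genes. The genes of this step that rose in both were P3h1, Crtap and Sec23a, from the prolyl 3-hydroxylase complex and the vesicle coat, together with the galactosyltransferase Colgalt2. Of 7 propeptide cleavage genes 4 rose in 129 and 3 in B6J, and 1, Adamts3, fell in both. Of 5 cross-linking genes 2 rose and 0 fell in each (3 and 0 at an unadjusted p under 0.05). Of 11 receptors 5 rose and 1 fell in 129 and 3 rose and 1 fell in B6J. The receptor that fell in both was Ddr1, while its relative Ddr2 rose in both. Of 9 turnover genes 5 rose and 1 fell in 129 and 3 rose and 1 fell in B6J.

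Lox, the lysyl oxidase that starts cross-linking of fibrils, went from 465, 221 and 226 CPM to 1277, 841 and 912 CPM in 129 (1.73, adjusted p = 0.00098), and from 229, 391 and 358 CPM to 851, 1032 and 1100.2 CPM in B6J (1.61, adjusted p = 0.0017). Adamts2, which removes the N-propeptide, rose from a mean of 12.3 to 44.3 CPM in 129 (1.85) and from 15 to 49.8 CPM in B6J (1.73). Itga11, the alpha chain of a collagen-binding integrin, rose from 51.6 to 190 CPM (1.88) and from 59.9 to 193 CPM (1.69). These 3 genes kept their call in both backgrounds under each alternative fit that was run, the covariate included.

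Ctsk, the collagen-degrading cathepsin K, rose by 1.54 and 1.31, and the metalloproteinase inhibitor Timp2 by 1.27 and 1.10. The B6J call of Timp2 was lost without any 1 of 5 B6J libraries, all but replicate 1 with the inhibitor, and neither gene was called with the covariate. Mmp9, a gelatinase, fell from 5.30 to 0.730 CPM in B6J (-2.86, adjusted p = 7.3e-06) and also fell in 129 (-1.50). P3h2, a prolyl 3-hydroxylase that acts on type IV, measured 10.9, 2.42 and 2.32 CPM in 129 with DMSO and 1.70, 1.63 and 1.2 CPM with the inhibitor (-1.79, adjusted p = 0.0193). Without replicate 1 with DMSO its value was -0.65 (adjusted p = 0.0529), and after leaving out treated replicate 2 or 3 it was -1.84 and -1.64 (0.0515 and 0.0729).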

How the data were processed

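RNA was measured in 12 libraries of mouse ES cells. The authors deposited whole-number read counts per gene for all libraries as 1 table, without normalization. Per the submitters' processing notes, the tools were HTSeq 0.6.1p1, STAR 2.7.10, DESeq and SAMtools, listed without roles, and GRCm38 and mm10 were the builds. The gene annotation, the strand setting and the handling of multiply placed reads were not given in the sources used here. Of the identifiers 26725 were found in GENCODE M21. Low counts were mostly even (70.1 to 73.4% of values from 1 to 20), so halved counts were one alternative.

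Genes passing filterByExpr (min.count 10, min.total.count 15), 16627 in all, were tested with edgeR 4.0.16 (R 4.3.3, TMM, quasi-likelihood, 4 group means, all 12 libraries) in 5 contrasts; SE is the absolute log2 fold change over the square root of F. The fit was tested on simulated data. The alternatives were other scalings, filters and tools (DESeq2 1.42.0, limma 3.58.1), the replicate number as a block, the fibroblast covariate, only the groups compared, and leaving out each library; the fit without both 129 libraries numbered 1 was added after seeing the data.

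The members and lists were chosen with earlier results of these data known. Members with a group mean of at least 5 CPM are given by library, from 1 to 5 CPM by means and ranges, and below 1 CPM by ranges unless called; of the processing list, called genes may be named, with values for the 6 of the largest fold change in each background among those reaching 5 CPM, 7 genes in all. Same-numbered 129 libraries deviated together over all genes (correlations of deviations from the group means 0.44, 0.29 and 0.22), so the number was taken as pairing them, although replicates 2 and 3 correlated nearly as well across numbers (0.21 and 0.19); in B6J (-0.19, 0.088 and -0.17) it was not.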

Additional observations from a re-analysis of the deposited data

How the results depend on the processing

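Depth was at least 62634533 counts per library. Col4a3 and Col19a1, with at most 12 and 10 counts in a library, did not pass the filter and were not tested. Of 1448 recomputed values of 66 single-gene results, 1296 kept direction and side of the threshold, 100 lost and 26 gained the call, and 26 turned direction; the cause was not tested. With the fibroblast covariate 9 members were higher in 129, and 8 were higher and 8 lower in B6J. The difference between responses had 1 higher and 1 lower in that fit. B6J against 129 had 6 higher and 7 lower with DMSO and 2 higher with the inhibitor. Over all tested genes that fit called 4659 in 129, 4614 in B6J and 745 in the difference, beside 5930, 5166 and 246 without the covariate. Between backgrounds it called 4743 with DMSO and 4152 with the inhibitor, beside 3468 and 3053. DESeq2 gave 1 lower in the difference and 2 higher between backgrounds with DMSO. Voom gave 1 lower, and the fit of only the compared groups 2 higher, between backgrounds with the inhibitor. The replicate block gave 2 higher between backgrounds with DMSO, where numbers do not pair libraries. In B6J, where they do not either, the block called Col1a2 (0.69, adjusted p = 0.00634). Without both 129 libraries numbered 1 there was 1 lower in the difference, 15 higher and 5 lower with DMSO, and 2 higher with the inhibitor. Leaving out single libraries, the counts ran from 12 to 21 higher and 5 to 7 lower in 129, 14 to 20 and 5 to 6 in B6J, 0 to 0 and 0 to 1 in the difference, 1 to 8 and 2 to 5 between backgrounds with DMSO, and 0 to 2 and 1 to 4 with the inhibitor.

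Values that turned direction in 129 were Col4a2 with voom (0.19) and Col4a1 and Col4a2 with the block (0.065 and 0.23), without replicate 1 with DMSO (1.19 and 1.28) and without both libraries numbered 1 (0.93 and 0.97). With the covariate they were Col1a2 (-0.035), Col6a1 (-0.12), Col6a3 (-0.11) and Col16a1 (-0.56) in 129 and Col1a2 (-0.16), Col6a1 (-0.041), Col16a1 (-0.65), Col4a1 (-1.69) and Col4a2 (-1.59) in B6J. Col2a1 in B6J was 0.0071 with DESeq2's size factors, 0.0076 with its Wald test and 0.011 without a filter. Without single libraries the values ran from -0.17 to 0.13 for Col2a1 in B6J, and in 129 from -1.38 to 1.19 for Col4a1 and from -0.998 to 1.28 for Col4a2. A fit of the 129 groups alone ended the 129 calls of Col1a2, Col5a3, Col6a1, Col6a3, Col27a1 and Col28a1 (adjusted p from 0.0509 to 0.0876). In a fit of the B6J groups alone 3 single-gene results of the B6J response gained the call and 1 lost it. Without both 129 libraries numbered 1, 3 results of the B6J response gained it and 0 lost it. Apart from calls given with the block in the report and here, the block ended the call of Col20a1 between backgrounds with DMSO (adjusted p = 0.0562). For comparisons of backgrounds the block tied same-numbered libraries of 129 and B6J. Their deviations correlated at -0.058, 0.0059 and -0.073 with DMSO and -0.32, 0.016 and -0.094 with the inhibitor. The number therefore does not pair libraries there.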
